A study of Mus musculus with 6 samples.

Results

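The members described here are the H3K9me3 regions that the deposited annotation places in an untranslated region (UTR) of a transcript. They were chosen as the autosomal regions of the class 3'UTR or 5'UTR whose gene symbol does not begin with Zfp, Zkscan, Zscan, Zik1, Olfr or Vmn, which are the symbols of the large zinc finger and of the olfactory and vomeronasal receptor families. Of 202553 regions, 1731 met the rule, 1563 of the class 3'UTR and 168 of the class 5'UTR. Of the 2014 UTR regions in all, 272 autosomal ones were left out by their symbol and 11 lay on X, Y or the mitochondrial genome.

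H3K9me3 was profiled by CUT&Tag, in which a transposase directed to the antibody-bound mark inserts adapters into the DNA next to it. The tissue was frozen quadriceps femoris, a thigh muscle, of mice with the genotypes Prr14-WT (replicates 3, 4 and 8) and Prr14-KO (replicates 4, 5 and 7), with 3 libraries per genotype. The labels give no age, sex, strain, promoter or Cre driver, or deleted exon, and give no statement that the libraries are from separate mice, so p-values measure the spread between these libraries. The table holds DNA counts only, so neither loss of Prr14 expression nor the makeup of the muscle by cell type can be read from it.

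H3K9me3 is written by enzymes such as SETDB1 and SUV39H1 and is bound by the heterochromatin proteins HP1, which compact and silence the DNA. PRR14 sits at the nuclear lamina, binds HP1 and so tethers heterochromatin to the nuclear edge. UTRs are the parts of a mature messenger RNA outside its coding sequence, and the DNA of a 3'UTR often holds old copies of transposable elements, one of the kinds of sequence that the mark silences.

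Library totals ran from 4324444 to 4756133 counts over all regions. Mitochondrial counts made up 0.174%, 0.189% and 0.366% of the wild-type libraries 3, 4 and 8, and 0.146%, 0.248% and 0.612% of the knockout libraries 4, 5 and 7. Levels below are CPM and are always listed in that order of libraries. The CPM scale is a library's counts in the regions that passed the filter on low counts, adjusted with TMM factors.

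The members were narrow. Widths ran from 142 to 3857 bp with a median of 323 bp and quartiles of 202 and 583.5 bp. The median was 308 bp for 3'UTR members and 419.5 bp for 5'UTR members, beside 321 bp for 4013 coding exon regions, 288 bp for 44406 intron regions and 327 bp for 127390 intergenic regions under the same choice of chromosomes and symbols. A width of at least 1000 bp was reached by 115 members (6.64%), and all members together covered 772.392 kb. The nearest other region lay a median of 5.43 kb from a 3'UTR member and 5.21 kb from a 5'UTR member, beside 5.25 kb for an exon region, 4.71 kb for an intron region and 3.60 kb for an intergenic region.

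Coverage of most members was shallow. The mean count over the 6 libraries had a median of 14.5 and quartiles of 9.5 and 24.1, and the median level was 3.41 CPM for 3'UTR members and 4.26 CPM for 5'UTR members. Only 34 members exceeded 20 CPM and 4 exceeded 100 CPM. Across the 1731 members, width and level had a Spearman correlation of 0.78. Both come from the same libraries, so this value is a description.

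The class label and the gene symbol did not always name the same gene. Of the 1731 members, 537 (31.0%) lay outside the span of the gene that the table names, 520 of them 3'UTR members and 17 of them 5'UTR members. The transcript whose UTR was hit could be given a symbol for 1343 members from pairs of transcript and symbol elsewhere in the table. For 934 of these it was the named gene and for 409 it was another gene. Among the 409 were 8 members in UTRs of zinc finger genes and 2 in UTRs of receptor genes, of the families that the rule leaves out by symbol. Members whose transcript had no symbol could not be checked for this. Where the 2 differ, the gene that owns the UTR is given below beside the symbol.

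Most members were nevertheless inside genes. In the RefSeq annotation of GRCm38.p6, 1634 members (94.4%) overlapped a gene and 1609 a protein-coding gene. The members lay at least 3082 bp from the start site of the named gene, since the annotation classes the DNA around starts as promoter first. Among the 1043 3'UTR members inside the span of their named gene, the median distance to the gene's end was 2455 bp, and 671 (64.3%) lay within 5 kb of it. The 1731 members carried 1479 symbols, 1297 of them with a single member, and 103 members (5.95%) belonged to gene models without an established name.

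By chromosome, 7 held the most members (144, or 1.20% of its regions) and 11 the highest share of its regions (106, or 1.26%). Chromosome 3 held the lowest share (71 members, 0.517%).

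Sfi1, which encodes a centrin-binding protein of the centrosome, stood far above every other symbol. Its strongest 3'UTR member, on chromosome 11 from 3131991 to 3135847, was also the widest of all members at 3857 bp and held a mean of 5585.5 counts. Its level was 1187, 1492 and 1324 CPM in the wild-type libraries and 1415, 1356 and 1221 CPM in the knockout libraries, so the genotypes overlapped. The 5 Sfi1 members together had a level of 2867 ± 289 CPM (SD, n = 3) in wild type and 2806 ± 161 CPM (SD, n = 3) in knockout (two-sided exact permutation test, p = 1), and held between 22.4% and 27.5% of the counts of all members. The exon regions of Sfi1 (6 regions, 276 CPM per kb) and its intron regions (5 regions, 295 CPM per kb) were of the same order as the strongest member at 345 CPM per kb. The level at Sfi1 is uncertain, since the treatment of reads that match several places is not stated in the sources at hand.

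Outside Sfi1, the strongest 3'UTR member was at Pcdhb22, a clustered protocadherin that gives neurons surface identity. Its level was 71.6, 78.3 and 45.1 CPM in wild type and 69.2, 59.3 and 45.2 CPM in knockout. One library of each genotype, replicate 8 of wild type and replicate 7 of knockout, was low. The region is only 338 bp wide, which gave it 182 CPM per kb against 18.2 CPM per kb over the 12 intron regions of the same symbol. Its UTR transcript could not be given a symbol, and the RefSeq genes it overlaps are the gene models Gm37013, Gm38666 and Gm38667. Whether those intron regions lie in the same gene as this member was not tested. The treatment of reads that match several places is unstated here too.

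Ulk4, a kinase-like protein of neurons and cilia, followed with 51.3, 51.1 and 32.0 CPM in wild type and 58.0, 43.1 and 41.9 CPM in knockout. The region named for Wdr25 lies outside that gene, in the 3'UTR of Begain, which encodes a postsynaptic protein. It had 32.5, 38.6 and 33.4 CPM in wild type and 39.1, 42.4 and 38.4 CPM in knockout, overlapping only at the edge. Tdrd9, a germline helicase of the pathway that silences transposons, had 28.8, 30.4 and 30.1 CPM in wild type and 36.3, 34.8 and 29.6 CPM in knockout. None of these members passed the test given below.

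A 243 bp member named for Ugt1a1, the liver enzyme that conjugates bilirubin, had 125 CPM per kb. In RefSeq it overlaps Ugt1a1 and also Ugt1a2, Ugt1a5, Ugt1a6a, Ugt1a6b, Ugt1a7c, Ugt1a8, Ugt1a9 and Ugt1a10, so it is not particular to Ugt1a1. How reads that match several places were treated is unstated here as well. Its values were 40.2, 31.1 and 30.6 CPM in wild type and 27.7, 29.8 and 22.3 CPM in knockout, so all 3 knockout values lay below all wild-type values (log2 fold change -0.35, 95% interval from -0.72 to 0.02, unadjusted p = 0.0646). The cytokine receptor genes Il21r and Il3ra each averaged 26.1 CPM and overlapped between genotypes. Other members above 20 CPM included the zinc finger transcription factor genes Bcl11b at 25.8 CPM and Prdm13 at 22.7 CPM. Their symbols are not among those that the rule leaves out.

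**Figure D1:**
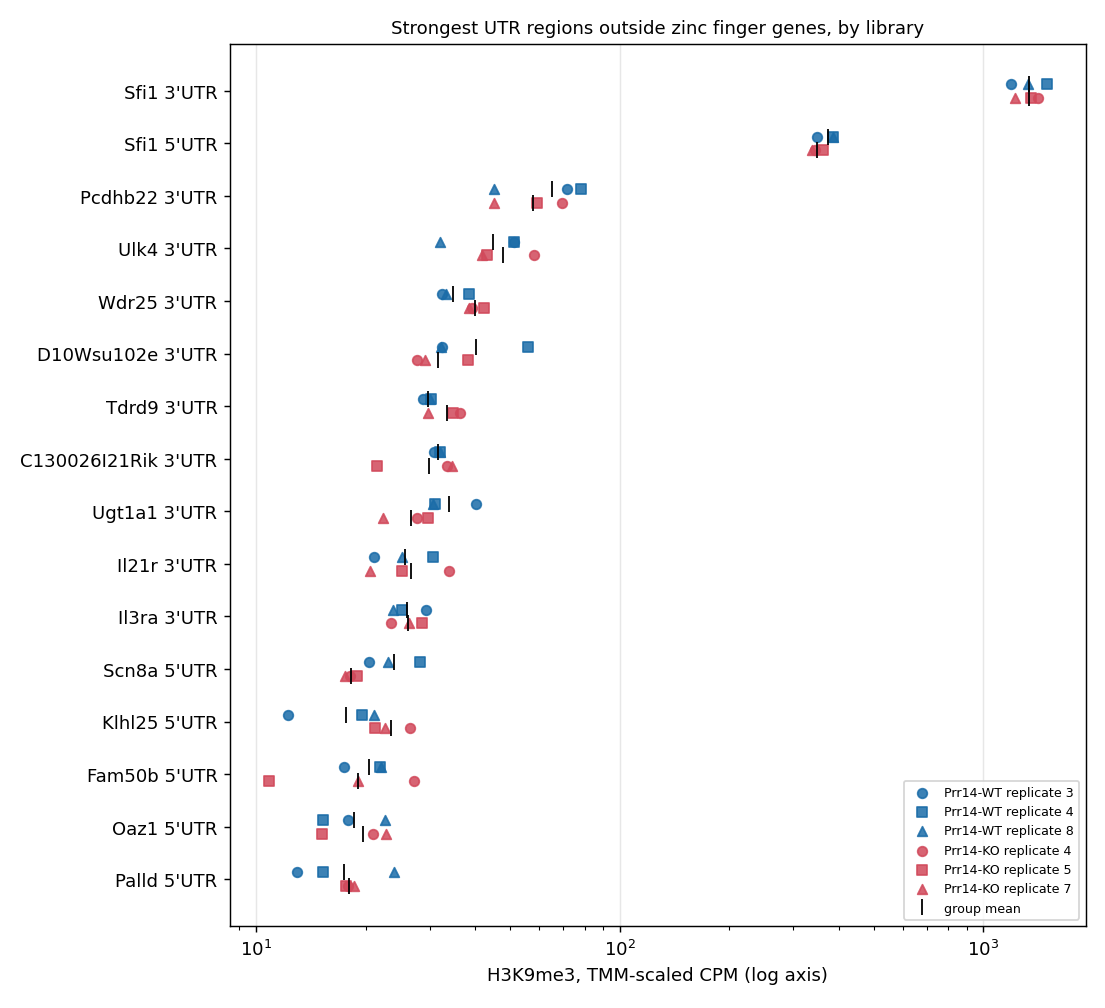
Level in TMM-scaled CPM (log axis) of the strongest 3'UTR and 5'UTR members, with 1 point per library coloured by genotype and a tick at each genotype mean. The 2 Sfi1 members lie between 338 and 1492 CPM and all others at or below 78.3 CPM, with wild-type and knockout points overlapping for most members.

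Among 5'UTR members, Sfi1 again led at 361 CPM on average. The next was Scn8a, a voltage-gated sodium channel of neurons, whose region was also the widest of the 5'UTR members at 1945 bp. It had 20.4, 28.2 and 23.0 CPM in wild type and 18.2, 18.9 and 17.6 CPM in knockout, with no overlap (log2 fold change -0.39, unadjusted p = 0.065). Klhl25, an adaptor of a ubiquitin ligase, went the other way, with 12.3, 19.5 and 21.2 CPM in wild type and 26.6, 21.2 and 22.6 CPM in knockout (log2 fold change 0.41, unadjusted p = 0.0535). Fam50b averaged 19.8 CPM, and its knockout values, from 10.8 to 27.3 CPM, spread more widely than the wild-type values of 17.5, 21.9 and 22.1 CPM. The region named for Oaz1 lies in the 5'UTR of Lingo3 and had 17.9, 15.3 and 22.6 CPM in wild type and 21.0, 15.1 and 22.8 CPM in knockout. Palld, which encodes an actin-binding protein of stress fibres, averaged 17.7 CPM, with 24.0 CPM in replicate 8 of wild type and 12.9 to 18.6 CPM in the other libraries.

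Members closer than 20 kb were joined into 1520 loci, of which 1363 held a single member and 7 held at least 4. One locus on chromosome 10, from 83374457 to 83484931, held 27 members over 110 kb, and these were all 27 regions the table has there. The table names D10Wsu102e for 15 and Aldh1l2, a mitochondrial folate enzyme, for 12, while the UTR is that of D10Wsu102e for all 27. The members of the locus are therefore pieces of 1 annotated UTR and not independent. None of the 27 overlaps a RefSeq gene, so this UTR rests on the deposited annotation alone.

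The locus summed to 233, 288 and 245 CPM in wild type and 245, 237 and 192 CPM in knockout. The mean was 255 ± 28.6 CPM (SD, n = 3) in wild type and 225 ± 28.5 CPM (SD, n = 3) in knockout, and the libraries overlapped (two-sided exact permutation test, p = 0.4, Benjamini-Hochberg adjusted over the 7 loci 0.933). Its strongest member, on chromosome 10 from 83424427 to 83425794, had 32.5, 55.8 and 32.2 CPM in wild type and 27.7, 38.3 and 29.1 CPM in knockout. Another member of the locus, from 83379476 to 83380839, had 18.4, 20.9 and 18.1 CPM in wild type and 12.6, 11.9 and 8.53 CPM in knockout, all lower (log2 fold change -0.80, SE 0.24, unadjusted p = 0.000919, edgeR adjusted p = 0.998).

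**Figure D2:**
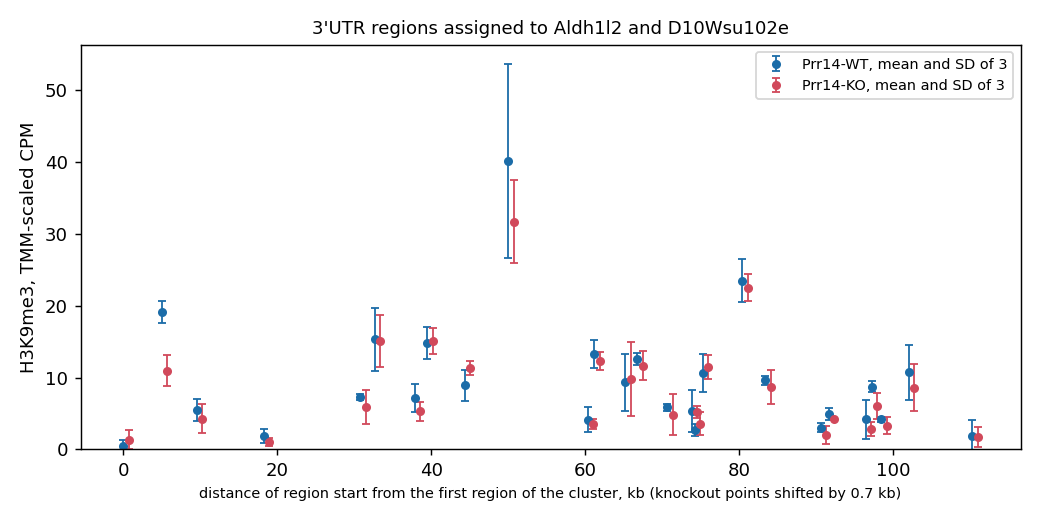
Level in TMM-scaled CPM of the 27 members of the chromosome 10 locus against distance in kb from the first member, with points for the mean and bars for the SD of 3 libraries per genotype (knockout points shifted sideways). The knockout mean lies below the wild-type mean at 21 of the 27 members and above it at 6, and the values of the 2 genotypes overlap at most members. The 27 are pieces of 1 annotated UTR and not independent, and the same share over all regions is not given here. Their sum did not separate the genotypes (two-sided exact permutation test, p = 0.4).

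The other 6 such loci were at Sfi1 (4 of its members), at Loxhd1, a hair cell stereocilia gene (5 members), and at Ppargc1a, Mobp, Acte1 and Lrp5 (4 members each). Ppargc1a encodes PGC-1alpha, the coactivator that drives mitochondrial biogenesis in oxidative muscle fibres. Its 4 members, spread over 1.26 kb of chromosome 5 from 51472948 to 51474207, summed to 11.1, 5.41 and 9.87 CPM in wild type and 6.06, 4.29 and 5.02 CPM in knockout, overlapping by 1 wild-type library (exact permutation p = 0.2, adjusted 0.933). None of the 4 had enough counts to be tested alone. The exact p of the other 5 loci ran from 0.5 to 1.

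To compare classes, the level per kb of width was taken as a median over regions within each library. It was 9.82, 9.85 and 11.4 CPM per kb in wild type and 8.96, 11.4 and 11.8 CPM per kb in knockout for 3'UTR members. For 5'UTR members it was 9.78, 10.4 and 10.8 CPM per kb in wild type and 10.2, 10.9 and 11.8 CPM per kb in knockout. Exon regions had 10.2, 10.4 and 11.5 CPM per kb in wild type and 9.76, 11.9 and 12.2 CPM per kb in knockout, intron regions between 10.4 and 11.5 CPM per kb, and intergenic regions between 11.1 and 11.2 CPM per kb. The UTR members, and likewise the exon regions, were high in replicate 8 of wild type and replicates 5 and 7 of knockout, the 3 libraries that also had the highest mitochondrial shares, and low in the other 3. That order crosses the genotypes, and the part of library quality in it was not tested.

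**Figure D3:**
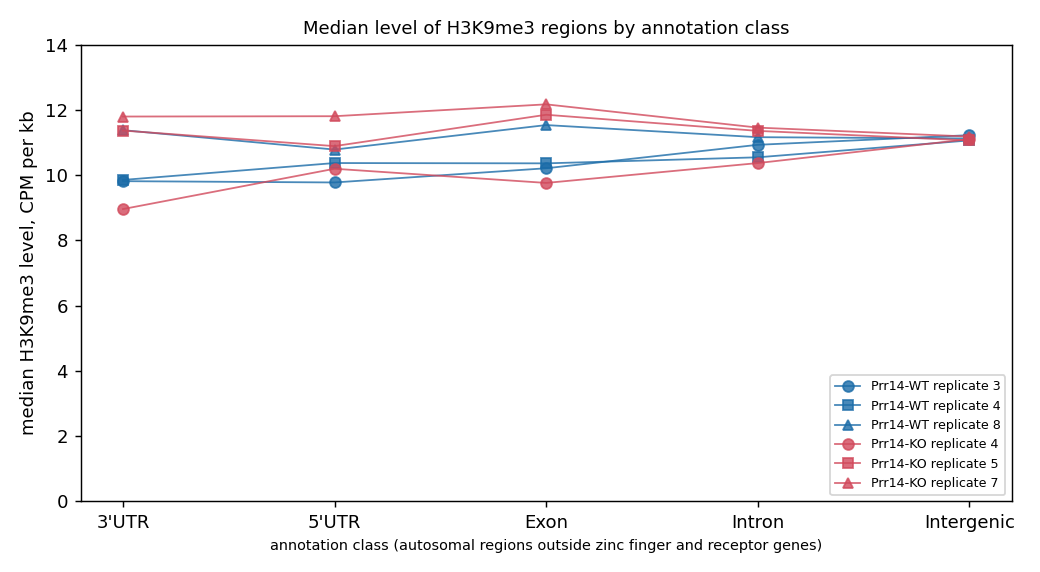
Median level in CPM per kb of width for each annotation class, with 1 line joining the values of each library and colours for genotype. The libraries spread from 8.96 to 11.8 CPM per kb at 3'UTR members and from 11.1 to 11.2 CPM per kb at intergenic regions.

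The 3'UTR and 5'UTR members did not differ in level per kb beyond this spread. The log2 difference of the medians, 3'UTR minus 5'UTR, averaged -0.019 and was above 0 in 3 of 6 libraries (two-sided exact sign-flip permutation test, p = 0.719). UTR members were lower than exon regions in 6 of 6 libraries, by 0.062 on average on the log2 scale, but the exact p of 0.03125, the smallest that 6 libraries allow, became 0.09375 after adjustment over 3 comparisons. Among regions at least 500 bp wide the same difference was -0.0098. Against intron regions the difference was -0.065 (adjusted exact p = 0.25) and against intergenic regions -0.086 (adjusted exact p = 0.25). For 905 gene symbols with both kinds of region, UTR members were lower than the intron regions of the same symbol in 5 of 6 libraries. The difference was 0.049 on average on the log2 scale (exact permutation p = 0.09375). None of these differences changed detectably with genotype (exact permutation p from 0.4 to 0.9).

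The share of a library's counts in 3'UTR members was 0.869%, 0.933% and 0.958% in wild type and 0.873%, 0.955% and 0.954% in knockout. It averaged 0.920% ± 0.0461 (SD, n = 3) and 0.928% ± 0.0470 (SD, n = 3), a difference within the spread of the libraries (two-sided exact permutation test, p = 0.7, adjusted over both kinds 0.9). For 5'UTR members the share averaged 0.116% ± 0.00688 (SD, n = 3) in wild type and 0.117% ± 0.00583 (SD, n = 3) in knockout (exact permutation p = 0.9, adjusted 0.9). With 3 libraries per genotype this test cannot give a p below 0.10. The labels name no spike-in, and scaling would remove a shift common to all regions.

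No member changed past the threshold between knockout and wild type. Of the 1731 members, 1259 (72.7%) passed the filter on low counts and were tested, 1125 of them 3'UTR members and 134 of them 5'UTR members. The 472 members not tested had a median count of 7.67 and a median width of 194 bp, against 18.3 counts and 433 bp for those tested. In edgeR's quasi-likelihood test 0 of the 1259 had a Benjamini-Hochberg adjusted p under 0.05, where 0.013% of all 153789 regions tested did (0.00325% higher and 0.00975% lower in knockout), and the smallest adjusted p of a member was 0.732. DESeq2 and limma-voom also called 0 members, where they called 0.00975% and 0.0111% of all regions.

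At an unadjusted p under 0.05, edgeR listed 67 members, 42 higher and 25 lower in knockout. That is 5.32% of those tested, where 3.84% of all regions reached it (2.02% higher and 1.81% lower). DESeq2 listed 61 members (4.85%, where 3.64% of all regions reached it) and limma-voom 43 (3.42%, where 2.91% of all regions did). The split by direction depended on the libraries: without replicate 7 of knockout it was 28 higher and 27 lower (3.99% of 1377 members tested, where 3.82% of all regions reached that p), and without replicate 4 of knockout 85 higher and 30 lower (7.94% of 1448, where 5.05% did). With the mitochondrial share as a covariate it was 26 higher and 31 lower (4.53%, where 4.05% of all regions did). All 3 knockout values lay above all wild-type values for 60 members and below them for 65, together 9.93% of those tested, where 9.61% of all regions tested separated in this way (4.68% above and 4.93% below).

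Across the tested members the log2 fold change had a median of 0.0098, beside 0.0011 over all regions tested, and quartiles of -0.27 and 0.33. The median standard error of a member's log2 fold change was 0.46, so differences of that size in a single member were not detectable at this depth. Much larger ones also went uncalled. A member at Robo4 with a log2 fold change of 1.43 had an edgeR adjusted p of 0.732. That named for Ice1, with 2.06, had an edgeR adjusted p of 0.998. In the authors' deposited table, 1341 members have an adjusted p, and 0 of these are under 0.05.

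**Figure D4:**
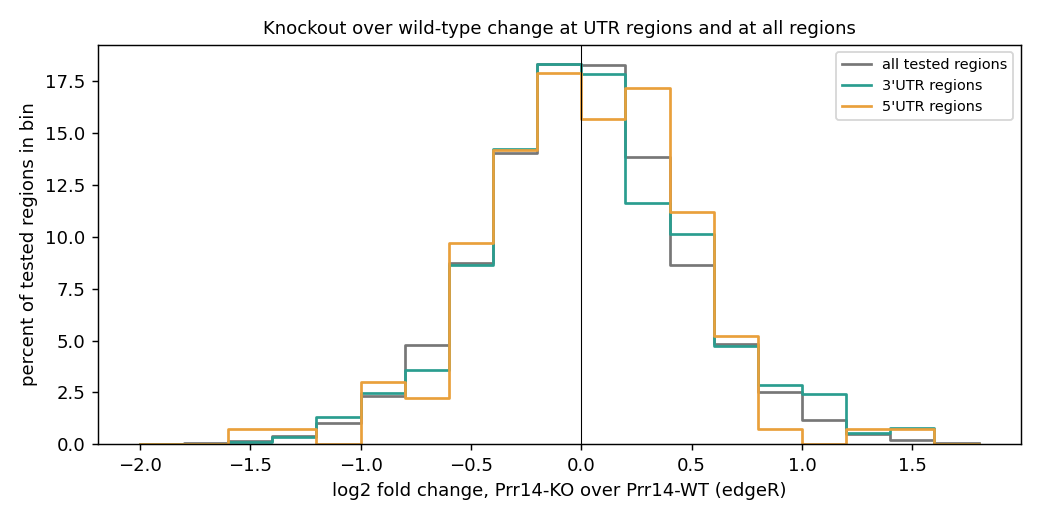
Distribution of log2 fold changes, knockout over wild type, as percent of regions per bin, with a line each for tested 3'UTR members, tested 5'UTR members and all regions tested. The 3 distributions centre near 0, and over both kinds of member the quartiles are -0.27 and 0.33.

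The members with the smallest p among those whose genotypes did not overlap are described here without a call. Robo4, a guidance receptor of blood vessel endothelium, had 4.32, 2.59 and 3.53 CPM in wild type and 7.92, 11.4 and 9.03 CPM in knockout in a 575 bp region of its 3'UTR on chromosome 9, from 37411005 to 37411579. Its log2 fold change was 1.43 (SE 0.38, unadjusted p = 0.000154, edgeR adjusted p = 0.732). A second region named for Robo4, 178 bp wide and lying outside that gene in a 3'UTR of Hepacam, had 2.50, 3.53 and 4.70 CPM in wild type and 2.33, 3.28 and 4.52 CPM in knockout (log2 fold change -0.085, SE 0.53), and the sum of both had a log2 fold change of 0.84 (unadjusted p = 0.00787, edgeR adjusted p = 0.999). A region named for Ice1 but lying in the 3'UTR of Adamts16, a secreted metalloprotease, had 1.59, 1.41 and 0.705 CPM in wild type and 3.26, 5.30 and 7.28 CPM in knockout. These are low levels, resting on few reads per library.

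The region named for Dsg1a, in the 3'UTR of the desmosomal cadherin gene Dsg1c, had 3.63, 6.82 and 4.47 CPM in wild type and 11.6, 7.57 and 9.53 CPM in knockout. At Psd3, an exchange factor for the small GTPase ARF6, the knockout values of 3.26, 4.79 and 10.3 CPM stood above the wild-type values of 2.95, 1.88 and 2.82 CPM, with replicate 7 far above the other knockout libraries.

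In the other direction, Hic1, a transcriptional repressor, had 7.50, 12.2 and 6.35 CPM in wild type and 3.49, 3.53 and 5.02 CPM in knockout. Rph3a, a synaptic vesicle protein, had 3.86, 6.35 and 6.35 CPM in wild type and 1.40, 3.53 and 1.00 CPM in knockout in its 5'UTR. The region named for Rfxap lies in the 5'UTR of Smad9, a transducer of bone morphogenetic protein signals, and had 8.18, 11.1 and 10.8 CPM in wild type and 4.89, 6.05 and 5.27 CPM in knockout. Oas1g, an antiviral oligoadenylate synthetase, had the highest level of the genes in this paragraph, with 21.8, 31.3 and 26.8 CPM in wild type and 17.7, 19.2 and 18.1 CPM in knockout. These 4 members, and those named for Ice1, Dsg1a and Psd3, had an edgeR adjusted p of 0.998.

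**Figure D5:**
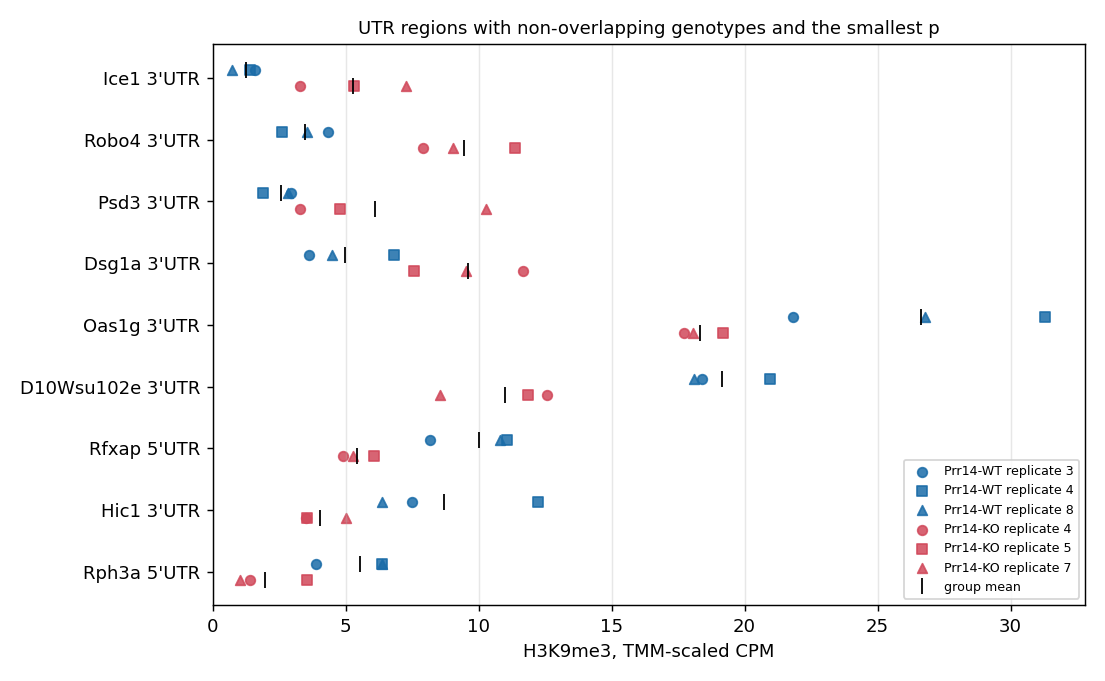
Level in TMM-scaled CPM in each library of 9 of the members with the smallest unadjusted p in either direction among those whose genotypes did not overlap. At Robo4 the knockout points lie between 7.92 and 11.4 CPM and the wild-type points between 2.59 and 4.32 CPM, and none of the 9 members passed the adjusted threshold.

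Regions with 1 gene symbol and 1 UTR class were also summed, which gave 1496 sums, 169 of them over at least 2 regions, and 1126 were tested. Since a symbol does not always name the gene that owns the UTR, a sum can join UTRs of different genes. Of these 0 passed an adjusted p of 0.05, where 0.0443% of all 29316 sums by gene and class did. At an unadjusted p under 0.05, edgeR listed 42 (3.73%, where 3.81% of all sums reached it). DESeq2 listed 34 (3.02%, where 2.6% of all sums did) and limma-voom 29 (2.58%, where 3.06% of all sums did). CPM of sums are scaled by a library's counts in the sums that were tested, so they differ from the CPM of regions above. The sum named for Slc2a2, the glucose transporter of liver and pancreatic islets, was 7.89 ± 1.65 CPM (SD, n = 3) in wild type and 3.25 ± 1.45 CPM (SD, n = 3) in knockout. That named for Wiz, a zinc finger partner of the H3K9 methyltransferases G9a and GLP, was 2.97 ± 1.37 CPM (SD, n = 3) in wild type and 7.13 ± 2.27 CPM (SD, n = 3) in knockout. Both had an edgeR adjusted p of 0.999, and whether their regions lie in the named genes is not given here. On the scale of sums, the 4 regions of Ppargc1a had 8.24 ± 2.84 CPM (SD, n = 3) in wild type and 4.76 ± 0.961 CPM (SD, n = 3) in knockout (log2 fold change -0.79, SE 0.38, unadjusted p = 0.0367, edgeR adjusted p = 0.999).

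Gene lists by function showed where the members lie, and no list had a member past the adjusted threshold. Counts of higher and lower regions in each list below are at an unadjusted p under 0.05 in edgeR. Over all regions tested, 3.84% reached that p, 2.02% higher and 1.81% lower in knockout. With so few tested regions per list, these counts are a description only. Ion channels and neurotransmitter receptors were the largest list with a function, with 52 regions at 39 symbols. Of its 37 tested regions, 0 were higher and 1 lower at an unadjusted p under 0.05, and the median log2 fold change was -0.08. Kcnh1, a voltage-gated potassium channel, had the second highest level after Scn8a, with 18.4, 17.9 and 18.6 CPM in wild type and 12.3, 15.6 and 17.6 CPM in knockout. The UTR transcript of its region was paired with the symbol Hhat, but the region lies inside the span of Kcnh1, and RefSeq also places it in Kcnh1. Chrna7, a nicotinic acetylcholine receptor subunit, averaged 14.4 CPM.

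Cadherins and protocadherins had 20 regions, with 1 higher and 2 lower of 18 tested and a median log2 fold change of -0.27. Pcdhb22 led the list, followed by the region named for Cdh23, which lies in the 3'UTR of Slc29a3 (16.7 CPM), and by Cdh7 (10.5 CPM). Synaptic adhesion genes had 12 regions, with 0 of 9 tested at that p, led by the latrophilin gene Adgrl3 at 11.8 CPM and the catenin gene Ctnnd2 at 10.8 CPM.

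Secreted protein and detoxification gene clusters had 31 regions, with 0 of 27 tested at that p and a median of -0.08. Behind Ugt1a1, the cytochrome gene Cyp4f15 had 14.3, 16.2 and 15.5 CPM in wild type and 16.3 to 23.3 CPM in knockout. Other receptor clusters (taste, trace amine, formyl peptide, Mrgp and killer lectin receptors) had 9 regions, with 1 of 6 tested lower, and their strongest member, the itch receptor gene Mrgpra3, averaged 8.44 CPM.

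Zinc finger factors with names outside the excluded families had 15 regions, with 1 of 13 tested lower and a median of 0.03. Bcl11b and Prdm13, given above, led this list. Gene models had 101 regions in this list, with 3 higher and 1 lower of 76 tested and a median of 0.08. Their strongest member was C130026I21Rik at 30.7 CPM.

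The list of sarcomere and muscle genes had 5 regions at 3 symbols, and all 5 lay outside the named gene. The 3 regions named for Tnnt2, cardiac troponin T, were in UTRs at Lad1 and Pkp1, the region named for Ckm, muscle creatine kinase, was in the UTR of Mark4, and the region named for Myog, the myogenic factor myogenin, was in Ppfia4. Of the 4 tested, 0 reached an unadjusted p of 0.05. The strongest, named for Tnnt2 and in the UTR of Pkp1, had 3.18, 2.59 and 2.12 CPM in wild type and 4.43, 7.82 and 3.26 CPM in knockout.

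Imprinted genes had 9 regions, 6 of them inside the named gene, with 1 of 5 tested higher. Peg3 averaged 7.76 CPM and Peg10 5.27 CPM in regions of their own UTRs, while the regions named for Ddc, Cdkn1c and Phlda2 lay in Grb10, Kcnq1 and Slc22a18. Genes of H3K9 methylation and heterochromatin had 4 regions, of which 2 were in the named gene, at Ehmt1 and at the demethylase gene Kdm4c, and none of the 3 tested reached an unadjusted p of 0.05. Germline genes had 2 regions, Tdrd9 and the acrosin gene Acr. Among markers of other cell types of muscle, the fibroblast receptor gene Pdgfra had a region at 1.77 CPM, which was not tested.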

How the data were processed

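Trimmomatic, BWA, deepTools, bedtools, MACS2 and DESeq2 (1.6.3) appear in the submitters' processing notes, as does the build GRCm38, with no settings, and nothing states whether regions were called on pooled libraries. Whole numbers in a column for each library were read as raw counts per region, as the authors deposited them without scaling. The authors' normalized signal equals the count divided by 1 factor per library and was used only to check that. The deposited log2 fold change, p-value and adjusted p-value are the authors' own comparison. The deposited score has no stated meaning and was left unused. Positions are given as in the table, with no statement of whether the first base is 0 or 1, and a width is end minus start plus 1.

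For every region with enough reads, knockout and wild type were compared by edgeR 4.0.16 (R 4.3.3): filterByExpr (minimum count 10, minimum total 15), TMM scaling, a robust quasi-likelihood fit of genotype with no covariate, and Benjamini-Hochberg adjustment over all 153789 regions tested, with a threshold of 0.05. The procedure was also run on simulated data, and its recovery of known changes is not given here. Library totals of 4324444 to 4756133 counts gave a member a median count of 14.5. Shares were compared over all 20 arrangements of the libraries, and levels per kb, with a prior of 0.5 counts, over sign flips of the 6 libraries. Gene spans are those of the authors' table, and RefSeq genes those of GRCm38.p6.

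The members and the gene lists were chosen with earlier results of these data known. Members named are the 10 strongest 3'UTR and 6 strongest 5'UTR members (1 per symbol), the 4 widest of each kind, the 6 symbols with most members, any past the adjusted threshold, the 5 with the smallest p in each direction among those whose genotypes did not overlap, and up to 3 of the strongest members per list. Of these, 2 members are not reported here. The other loci with at least 4 members, the gene sums of Slc2a2, Wiz and Ppargc1a, and the small lists' other regions were named after their values were seen. Alternatives were other scalings, filters and widths, DESeq2 1.42.0, limma-voom (limma 3.58.1) and leaving out each library. A mitochondrial covariate, members inside the named gene and shares without Sfi1 were added after seeing the data. No sequence is printed, since no genome of the build was used here.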

Additional observations from a re-analysis of the deposited data

How the results depend on the processing

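No region and no gene sum of a member passed an adjusted p of 0.05 in the 17 alternatives run for regions or the 14 run for sums, and the smallest adjusted p of a region was 0.346, among regions with a mean count of at least 20. The median log2 fold change of members stayed between -0.018 and 0.088 when each library was left out and was -0.039 with the mitochondrial share as a covariate. At an unadjusted p under 0.05, the number of members rose from 67 to 115 without replicate 4 of knockout, and that of sums from 42 to 91. All regions rose with them, from 3.84% to 5.05%, and all sums from 3.81% to 7.05%. No paired analysis was possible because the genotypes share only 1 replicate number, 4.

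Small differences changed sign. Leaving out each library, the knockout minus wild-type share of counts ran from -0.0179 to 0.0349 percentage points for 3'UTR members and from -0.0032 to 0.0036 for 5'UTR members. It was below 0 for 3'UTR members without replicate 3 of wild type (-0.0179) or replicate 5 (-0.0062) or 7 (-0.00545) of knockout, and for 5'UTR members without replicate 3 of wild type (-0.0032) or replicate 7 of knockout (-0.0028). The log2 difference in level per kb between 3'UTR and 5'UTR members was 0.0040 with means, 0.0036 without gene models, 0.021 with a prior of 2 counts and -0.039 to 0.014 leaving out each library, with 0.014 without replicate 4 of knockout. Among regions at least 500 bp wide it was -0.13, lower in all 6 libraries (exact sign-flip permutation p = 0.03125). For those regions UTR members differed by -0.0098 from exons (exact permutation p = 0.59375 after adjustment), -0.033 from intergenic regions and 0.019 from introns. From intron regions of the same gene symbol they differed by 0.022. The difference from intron regions of the same symbol was 0.015 with a prior of 2 counts. It was -0.096 with means and -0.056 without gene models, each with an exact permutation p of 0.03125. The cause was not tested. Depth limits single members, since 472 were removed by the filter on low counts.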
